A study of Mus musculus with 6 samples.

Results

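The S100 genes encode small calcium-binding proteins, and 10 of those on mouse chromosome 3 were chosen by name for this report (*S100a1*, *S100a3*, *S100a4*, *S100a6*, *S100a8*, *S100a9*, *S100a10*, *S100a11*, *S100a13* and *S100a14*). The table analysed held 9 of the 10 among its 17428 gene rows, and all 9 passed the filter on low values that left 13893 genes. *S100a9* was not analysed here. The libraries were made from EpH4, an immortalized line of mouse mammary epithelial cells, at 3 stages with 2 biological replicates each. E cells were never given TGFβ1, M cells had it in their medium for 7 days, and RE (reverted epithelial) cells spent another 4 days in normal medium after those 7 days. All stages shared the same line and the same medium with serum, antibiotics and recombinant human insulin, so the model is 1 cell line followed through induction and reversal of an epithelial-mesenchymal transition (EMT). Values are coverage, that is sequenced bases summed per gene, as ppm of each library's whole coverage scaled by TMM, and the libraries held from 35782513 to 47928557 reads' worth of 50 bases. A gene was called at a log2 fold change above 1 or below −1 and a Benjamini-Hochberg adjusted p below 0.01 by limma on log2(ppm + 0.1), a scale that understates the change of low genes.

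S100 proteins carry a pair of EF-hand loops, change shape when calcium binds, and then attach to partner proteins inside the cell. Several are also secreted and act on receptors at the cell surface. In epithelia and tumours they are known for links to the cytoskeleton, membrane repair, migration and inflammation. *S100a10* is the exception in the family, since its product does not bind calcium and works as the partner of annexin A2.

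The label of the cells was checked on 8 epithelial markers, of which 7 had a row. *Epcam* was not analysed here, and *Krt19* was at 0.162 ppm or less. *Cdh1*, *Krt7*, *Krt8*, *Krt18*, *Cldn4* and *Cldn7* passed the filter, and the 7 summed to between 2859 and 3097 ppm in the E libraries, 2863 and 2880 ppm in the M libraries and 1123 and 1242 ppm in the RE libraries, where 4 of the 6 tested were called lower than in the E cells. Of all genes tested 3.17% were called lower in RE than in E. *Krt7* was the largest part of the sum at E and M, with means of 1409 and 1585 ppm. In M, *Cldn4* (−1.07, limma adjusted p = 0.000931) and *Cldn7* (−1.89, adjusted p = 6.24e-05) were called lower than in E, as were 8.39% of all genes. No other epithelial marker was called in E vs. M, and *Cdh1* was not called in any comparison. The E replicates were unequal in a way that goes with transcript length. It touches short transcripts such as those of the S100 genes, and long ones in the other direction. All 9 S100 genes were higher in the first E library than in the second, by 0.26 to 0.86 on the log2 scale (median 0.50), against 51.5% of all genes tested. Over all genes the median of that difference ran from 0.36 for the 1302 genes with the shortest transcripts (at most 1251 bases) to −0.57 for the 1297 with the longest. The S100 transcripts had 486 to 1059 bases. In the M and RE cells 1 and 4 of the 9 were higher in the first replicate, and the medians of the shortest transcripts were 0.02 and −0.04. The comparisons of the 9 S100 genes with the E cells are therefore also given after removal of each library's trend on transcript length and GC content, here called trend removal. Those of all other genes named here, markers and partners included, are given without it. Trend removal takes out any such trend between stages along with that between replicates. Which of these its shifts of the S100 genes come from was not tested.

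**Figure D1:**
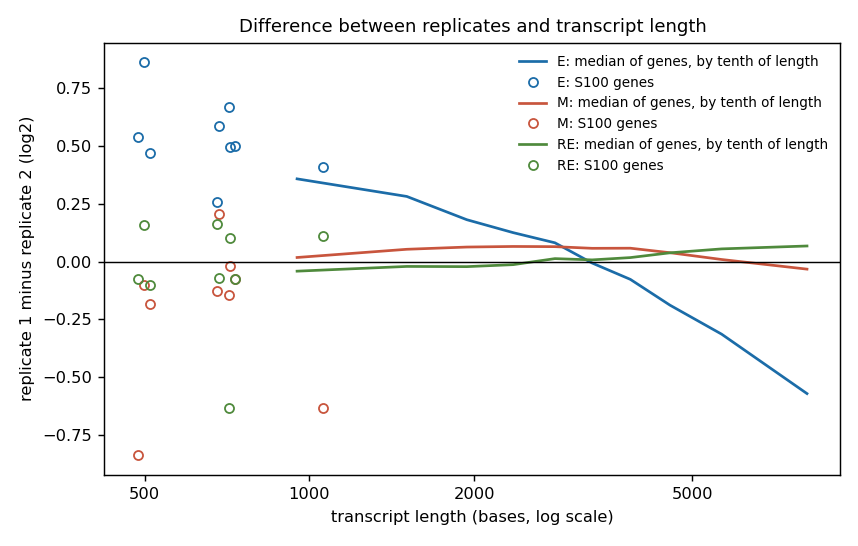
Log2 difference between replicate 1 and replicate 2 (y axis) against transcript length in bases (x axis, log scale) for E, M and RE. Lines join the medians of the genes tested in 10 equal classes of length, and circles are the 9 S100 genes. The E line falls from 0.36 to −0.57, and the 9 E circles lie between 0.26 and 0.86.

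Most of the family lies side by side. In the GENCODE annotation (GRCm38), a newer build than the one the reads were mapped to, 12 of the 13 coding genes from *S100a1* to *S100a9* are S100 genes, 8 of them on the list, in the order *S100a1*, *S100a13*, *S100a14*, *S100a16*, *S100a3*, *S100a2*, *S100a4*, *S100a5*, *S100a6*, *S100a7a*, *S100a8* and *S100a9*. *S100a11* and *S100a10* are neighbours of each other, 60 coding genes further on. *S100a3* and *S100a4* share 144 and 302 exonic bases with *Gm42674*, a gene model on the same strand. *S100a3* shares 117 with *Gm23464* on the other strand, and neither gene model had a row. Whether these overlaps touched the coverage was not tested. *S100a1* and *S100a13* point away from each other with their starts separated by a short interval. The interval is shown first because both genes have the same flanking sequence. The other 2 sequences are the 250 bases before the RefSeq starts of *S100a4*, called higher in RE than in both other stages, and of *S100a11*, whose level was highest in the M cells. All are from RefSeq (GRCm38.p6), read 5′ to 3′, with motif matches in capitals.
Interval between S100a1 and S100a13, chr3:90514331-90514434, + strand, 104 bases: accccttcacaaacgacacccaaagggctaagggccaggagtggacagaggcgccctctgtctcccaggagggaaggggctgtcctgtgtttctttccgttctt
S100a4, chr3:90603520-90603769, + strand: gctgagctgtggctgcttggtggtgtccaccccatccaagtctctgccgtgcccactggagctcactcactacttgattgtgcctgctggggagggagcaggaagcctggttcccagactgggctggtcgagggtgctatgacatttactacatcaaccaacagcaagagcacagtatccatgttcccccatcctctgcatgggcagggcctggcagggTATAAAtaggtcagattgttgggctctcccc
S100a11, chr3:93520246-93520495, + strand: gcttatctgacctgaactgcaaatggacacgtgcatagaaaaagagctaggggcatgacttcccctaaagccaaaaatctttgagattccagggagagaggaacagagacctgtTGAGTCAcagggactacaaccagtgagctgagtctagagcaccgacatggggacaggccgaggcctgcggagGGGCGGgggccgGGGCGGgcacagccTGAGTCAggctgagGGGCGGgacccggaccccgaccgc
The motifs searched on both strands were TATAAA for the core promoter box, TGANTCA for AP-1, TTGCNNAA for C/EBP, CAGACA for Smad proteins and GGGCGG for the GC box, and no 2 of the matches shown overlap. The *S100a4* window held 1 match to TATAAA, a motif in 12.4% of the 32851 promoter windows of this length. The *S100a11* window held 2 matches to TGANTCA, in 6.75% of windows, and 3 to GGGCGG, in 32.7%. The interval between *S100a1* and *S100a13* held none of the 5, and neither did the *S100a6* window. The *S100a8* window held 1 match each to TATAAA and to CAGACA, the latter in 17.1% of windows. TTGCNNAA, in 9.56% of windows, was matched once before *S100a9* and in none of the windows of the other 7 genes. Windows were found for 8 of the 10 listed genes, not for *S100a10* and *S100a14*.

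In coverage per kilobase of transcript, which allows genes to be compared, the family was dominated by *S100a6*, *S100a10* and *S100a4* at every stage. Among the listed genes the means in the E cells were 265 ± 64.4 ppm per kb (SD, n = 2) for *S100a6*, 229 ± 64.9 for *S100a10* and 98.3 ± 40.5 for *S100a4*, followed by *S100a11* (26.8), *S100a1* (21.5), *S100a14* (14.3), *S100a13* (10.6), *S100a3* (2.49) and *S100a8* (1.02). *S100a16*, not on the list, had 21.7. The libraries of *S100a6* and *S100a10*, of *S100a11* and *S100a1*, and of *S100a14* and *S100a13* overlapped in ppm per kb, but within each E library the gene named first was the higher of the pair, and the shares of the family total did not overlap. In the M cells *S100a14* dropped out of the middle of this order to 0.907 ± 0.305 ppm per kb, where its libraries overlapped with those of *S100a8* (0.856 ± 0.424). In the RE cells *S100a4* was first at 370 ± 29.1 ppm per kb, above *S100a6* (239 ± 8.54) and *S100a10* (213 ± 7.37), with no overlap among the libraries of these 3 genes.

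Shares of the family total, which do not depend on a library's overall S100 level, showed the same change of order. *S100a4* held 15.4% and 12.5% of the summed ppm per kb of the 14 S100 genes with a row in the E libraries, 16.6% and 17.7% in the M libraries and 41.1% and 37.7% in the RE libraries. *S100a6* held 38.4% ± 1.18 (SD, n = 2) at E, 37.9% ± 1.30 at M and 25.5% ± 1.34 at RE. *S100a14* held 2.09% ± 0.155 at E, 0.132% ± 0.044 at M and 0.766% ± 0.0293 at RE. The sum itself was 825 and 558 ppm per kb in the E libraries, 686 and 689.5 in the M libraries and 949.8 and 928 in the RE libraries. Both RE libraries lay above the other 4. The mean sum went from 691 ppm per kb at E to 939 at RE. *S100a4* alone went from 98.3 to 370 ppm per kb, a larger rise than that of the sum. A share falls when another gene rises, and the coverage of *S100a6* itself was not called different in E vs. RE (−0.12, limma adjusted p = 0.628).

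**Figure D2:**
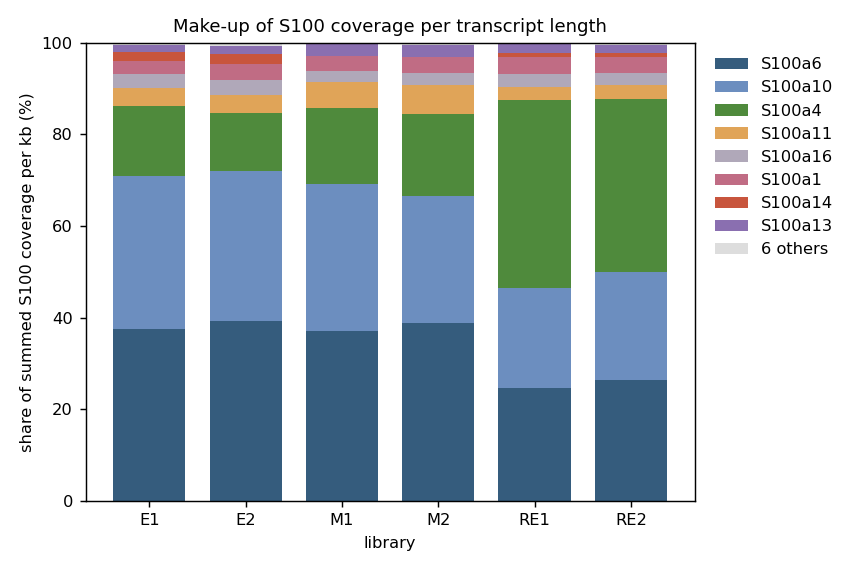
Share of the summed S100 coverage per kilobase of transcript (y axis, %) held by each gene in each of the 6 libraries (x axis), as stacked bars. *S100a4* takes 37.7% and 41.1% of the RE bars and between 12.5% and 17.7% of the E and M bars. The grey part is *S100a3*, *S100a8*, *S100g*, *S100a7a*, *S100a5* and *S100b* together.

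After 7 days of TGFβ1, *S100a14* was the 1 gene of the 9 that was called lower. *S100a14* is a member of the family found mainly in epithelia. Its coverage was 17.3 and 12.96 ppm in the E libraries, 0.732 and 1.19 ppm in the M libraries and 7.91 and 7.32 ppm in the RE libraries. The 3 stages did not overlap, with the M libraries lowest and the RE libraries in between. The mean in the E cells was 15.7 times that in the M cells (−3.86 on the log2 scale, standard error 0.26, limma adjusted p = 5.43e-05), and without 1 library at a time the difference ran from −4.18 to −3.55 and stayed called. In these bulk libraries fewer expressing cells and less RNA per cell cannot be told apart. In E vs. M 1 of the 9 genes was called, the lower *S100a14*, where 17% of all genes tested were called, 8.58% higher and 8.39% lower in M. Groups that did not overlap were seen for 4 of the 9 and for 70.6% of all genes.

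*S100a13* and *S100a11* were higher in both M libraries than in both E libraries without being called. *S100a13*, whose product takes part in the release of FGF1 and interleukin-1α from cells, had 8.85 and 6.24 ppm in the E libraries, 12.4 and 12.6 in the M libraries and 13.3 and 12.4 in the RE libraries, so M and RE overlapped and both lay above E. The E vs. M difference was 0.74 on the log2 scale (standard error 0.20, limma adjusted p = 0.0213). *S100a11*, known for its partnership with annexin A1 and for membrane repair, had 15.9 and 11.5 ppm in the E libraries, 19.9 and 22.6 in the M libraries and 13.6 and 14.6 in the RE libraries. The M libraries were the highest, and E and RE overlapped (E vs. M 0.65, standard error 0.19, limma adjusted p = 0.0313). With the length and GC trend removed both were called in E vs. M, *S100a11* at 1.15 (limma adjusted p = 0.000376) and *S100a13* at 1.21 (adjusted p = 0.000512), and 3 of the 9 genes were called in place of 1, where 17.6% of the 12973 genes in that fit were called. In E vs. RE *S100a11* was at 0.06 (limma adjusted p = 0.827), or 0.44 (adjusted p = 0.0486) with trend removal, and was not called. *S100a11* also has a pseudogene, with which its coverage may be shared.

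The other 6 genes were not called in E vs. M. *S100a6* (calcyclin) had 227 and 160.1 ppm in the E libraries, 186 and 196 in the M libraries and 171 and 179 in the RE libraries, and *S100a10* had 188 and 125, 151 and 131, and 143 and 149.7 ppm. The 2 E libraries enclosed all M and RE libraries of both genes, and every log2 fold change of these genes lay between −0.13 and 0.05. Trend removal moved them above the E cells without a call, *S100a6* to 0.47 in E vs. M (limma adjusted p = 0.0142) and 0.27 in E vs. RE and *S100a10* to 0.33 and 0.30. *S100a3*, best known from the hair cuticle, had 2.19 and 1.34 ppm in the E libraries, 0.929 and 1.04 in the M libraries and 0.744 and 1.21 in the RE libraries, below both E libraries at both later stages (−0.75, limma adjusted p = 0.111 in E vs. M). With trend removal its values were −0.27 in E vs. M and −0.39 in E vs. RE. *S100a8*, which with *S100a9* makes up the neutrophil protein calprotectin, was at 0.270 to 0.606 ppm in the 6 libraries, or 11.3 to 26.2 reads' worth, and its groups overlapped throughout (0.20 in E vs. M and 0.46 in E vs. RE with trend removal, not called). Of 14 myeloid markers 8 had a row, and they summed to between 6.07 and 10.1 ppm in the E libraries, 8.75 and 9.16 in the M libraries and 6.71 and 7.48 in the RE libraries, of which *Cd68* made up 5.17 to 9.18 ppm. *Ptprc* and *Ngp* were at or under 3 reads' worth in every library. Of the 4 myeloid markers tested *Fcer1g* was called higher in M than in E and lower in RE than in M, and *Lyz2* higher in RE than in E. The shares of all genes tested that were called in these directions were 8.58%, 4.79% and 6.2%. The part of the myeloid markers in the *S100a8* values was not tested.

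**Figure D3:**
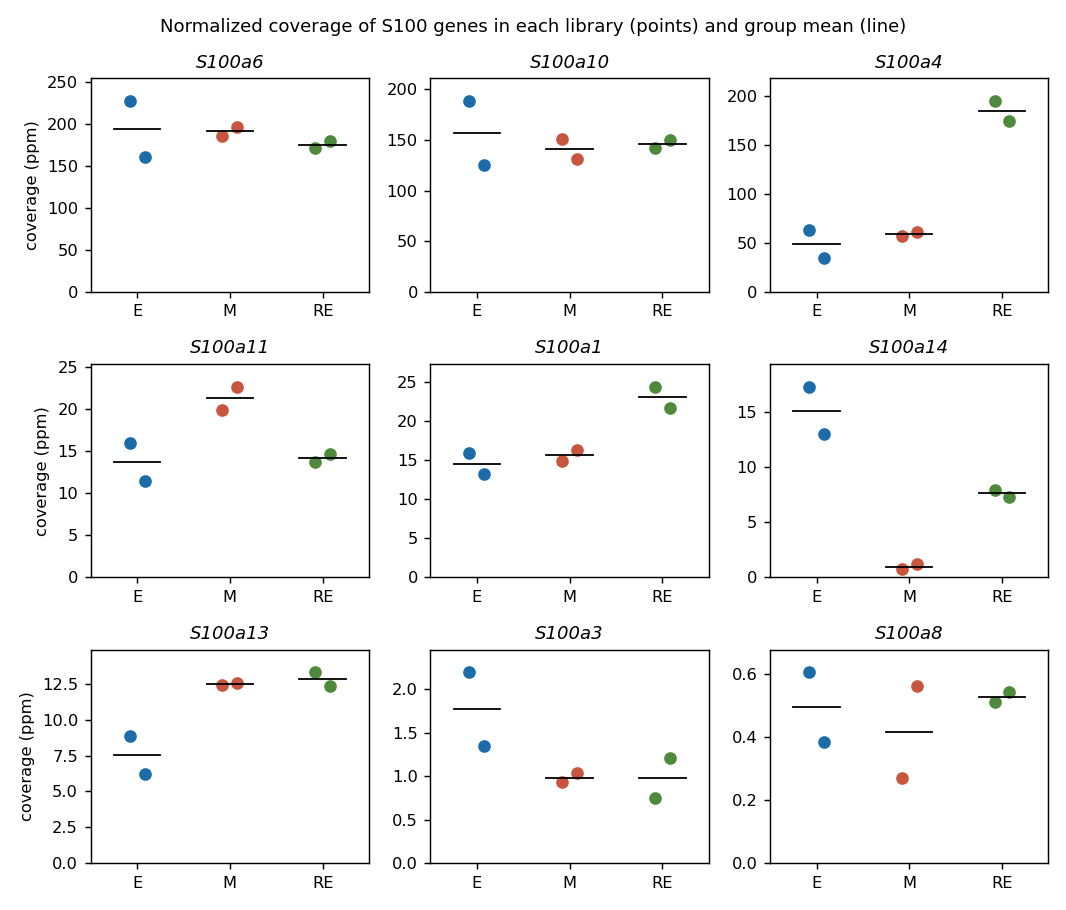
Normalized coverage in ppm (y axis, from 0) of the 9 S100 genes by stage (x axis: E, M, RE). Points are libraries, 2 per stage, and lines are group means. *S100a4* stands at 174 and 194 ppm in the RE cells against at most 63.2 in the other 4 libraries, and *S100a14* is at 0.732 and 1.19 ppm in the M cells.

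On removal of TGFβ1, *S100a4* and *S100a14* rose from M to RE. *S100a4*, also named metastasin or FSP1, encodes a binding partner of non-muscle myosin that has been linked to motility and is used as a marker of fibroblasts and of EMT. It had 63.2 and 34.7 ppm in the E libraries, 56.8 and 60.9 in the M libraries and 194 and 174 in the RE libraries. Both RE libraries were far above the other 4, and the M libraries lay within the range of the E libraries (E vs. M 0.33, limma adjusted p = 0.339, and 0.83, limma adjusted p = 0.0113, with trend removal). The RE mean was 3.13 times the M mean (1.64 on the log2 scale, standard error 0.26, limma adjusted p = 0.00271) and 3.76 times the E mean (1.97, adjusted p = 0.00202). Without 1 library at a time the fold changes ran from 1.56 to 1.72 against M and from 1.54 to 2.40 against E. The call against M was lost without either M or either RE library and that against E without either RE library. Those fits left 1 library in a stage, and fewer of all genes were called in each of them too. With the length and GC trend removed the values were 1.51 against M, where 14.7% of genes were called in that fit, and 2.34 against E, and both were called.

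The recovery of *S100a14* from M to RE was 2.90 on the log2 scale (standard error 0.26, limma adjusted p = 0.000211), a mean 7.93 times higher, called without any 1 library. It did not reach the E cells in either library, and the RE mean was 0.504 of the E mean. That difference was not called (−0.97, limma adjusted p = 0.03), except without the second E library, where it was −1.17 (adjusted p = 0.0012). With trend removal *S100a14* was at −3.51 in E vs. M, called, and at −0.68 in E vs. RE, not called. In M vs. RE 2 of the 9 genes were called, both higher in the RE cells, where 12.9% of all genes were called, 8.08% higher and 4.79% lower. Groups did not overlap for 5 of the 9 and for 78.1% of all genes. *S100a11* was lower in both RE than in both M libraries without being called (−0.58, limma adjusted p = 0.0547).

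Fibroblast markers were read beside *S100a4*. Of 8 listed 7 had a row, and their sum was 136 and 165 ppm in the E libraries, 1139 and 991 in the M libraries and 1252 and 1069 in the RE libraries. All 6 tested were called higher in RE than in E, and in M than in E 4 were called higher and 1 (*Dcn*) lower, where *S100a4* was not called. Of all genes tested 6.2% were called higher in RE than in E, and 8.58% higher and 8.39% lower in M than in E. In M vs. RE, where *S100a4* rose, *Pdgfra* (1.41, limma adjusted p = 0.000506) and *Dcn* (4.70, adjusted p = 0.000217) were called higher and *Col1a1* lower (−1.08, adjusted p = 0.00407). Of all genes tested 8.08% were called higher and 4.79% lower in that comparison. *Dcn* had 0 and 0.00679 ppm in the M libraries, under 3 reads' worth, and 3.79 and 1.74 in the RE libraries. Its fold change therefore depends on the 0.1 ppm added before the log. *Thy1* was at or under 3 reads' worth in every library, and *Lum* was not analysed here. Their part in the *S100a4* result was not tested.

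Between the RE cells and the never-treated E cells, *S100a4* was the 1 gene called of the 9, where 9.37% of all genes were called, 6.2% higher and 3.17% lower. Groups did not overlap for 5 of the 9 and for 66.7% of all genes. *S100a1* and *S100a13*, the divergent pair whose shared interval is printed above, were both higher in both RE than in both E libraries. *S100a1*, which in muscle acts on calcium release, had 15.8 and 13.2 ppm in the E libraries, 14.9 and 16.3 in the M libraries and 24.3 and 21.7 in the RE libraries. E and M overlapped, and both RE libraries were above them. Its log2 fold change was 0.66 in E vs. RE (standard error 0.16, limma adjusted p = 0.0209) and 0.56 in M vs. RE (adjusted p = 0.0359), and that of *S100a13* in E vs. RE was 0.78 (adjusted p = 0.0243). With the length and GC trend removed *S100a1* (1.07, limma adjusted p = 0.000952) and *S100a13* (1.18, adjusted p = 0.00118) were called in E vs. RE, so that 3 of the 9 genes were, where 10% of all genes in that fit were called. Without the first E library *S100a13* was called too (1.03, limma adjusted p = 0.000123). In E vs. M *S100a1* was at 0.11 (limma adjusted p = 0.631), or 0.59 (adjusted p = 0.0103) with trend removal, and was not called in either. *Snapin*, which lies beyond *Chtop* on the *S100a1* side, was not called in any comparison (0.70 in M vs. RE, limma adjusted p = 0.0162).

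The median log2 fold change of the 9 genes was 0.002 for M against E, 0.05 for RE against M and 0.06 for RE against E, where all genes tested had 0.0013, −0.02 and 0.01. The 3 comparisons share libraries, so their values are not independent of each other.

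**Figure D4:**
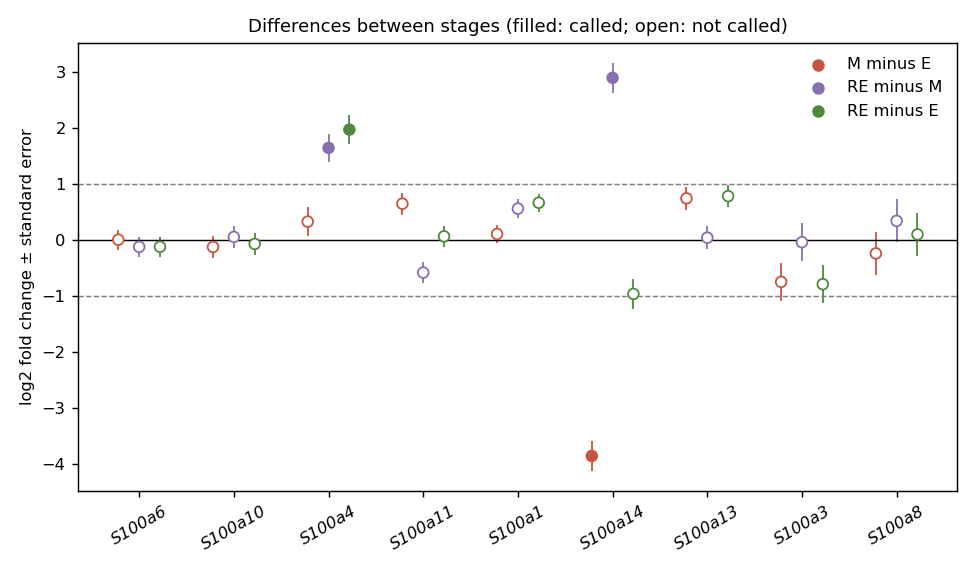
Log2 fold change with its standard error (y axis) of the 9 S100 genes (x axis) in the 3 comparisons. Filled points were called and dashed lines mark −1 and 1. *S100a14* is at −3.86 in M minus E and 2.90 in RE minus M, and *S100a4* at 1.64 and 1.97 in the RE comparisons, and the other points lie within the dashed lines.

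**Figure D5:**
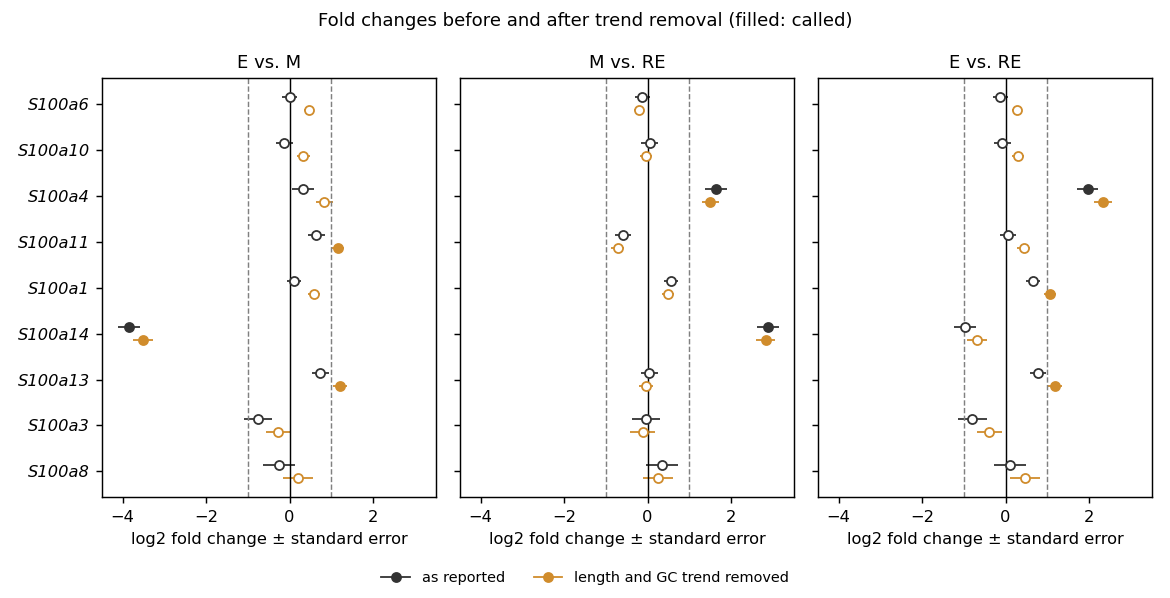
Log2 fold change with its standard error (x axis) of the 9 S100 genes (y axis) in each comparison, as reported (dark) and after removal of each library's trend on transcript length and GC content (orange). Filled points were called. In E vs. M *S100a11* moves from 0.65 to 1.15, and in E vs. RE *S100a1* moves from 0.66 to 1.07, past the dashed line at 1.

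Of the S100 and fused-type genes of the same superfamily that were not on the list, 8 of 16 had a row and 4 were tested. *S100a16*, next to *S100a14*, had 28.1 and 20.9 ppm in the E libraries, 17.7 and 20.0 in the M libraries and 29.4 and 28.5 in the RE libraries (M vs. RE 0.62, limma adjusted p = 0.0338, not called). *S100b*, which lies on another chromosome and is known from glia, was at 0.234 to 0.296 ppm in the E and M libraries and at 0.910 and 0.595 in the RE libraries, and was not called (1.20 against E, limma adjusted p = 0.0315). *S100a7a* was at 0.336 and 0.693 ppm in the E libraries, 0.241 and 0.444 in the M libraries and 0.0893 and 0.167 in the RE libraries, also not called (−1.39 against E, limma adjusted p = 0.0493). *S100a5* and *S100g* did not pass the filter, with at most 13.5 reads' worth in a library. *Tchh* (trichohyalin), a fused-type member with a long repeat domain, had 39.0 and 28.9 ppm in the E libraries, 7.53 and 8.32 in the M libraries and 34.0 and 29.3 in the RE libraries. It fell in the M cells (−2.07, limma adjusted p = 0.000179) and rose again in the RE cells (1.98, adjusted p = 0.000252). *Flg2* and *Crnn* were at or under 4 reads' worth in every library.

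Annexins, the membrane-binding partners of several S100 proteins, were represented by 10 of 12 genes, all tested. In E vs. M 2 were called higher and 1 lower, where 17% of all genes were called. In M vs. RE none was called, where 12.9% of all genes were. In E vs. RE 1 was called lower, as were 3.17% of all genes. The median log2 fold change of the 10 was 0.53 in E vs. M and −0.53 in M vs. RE, against 0.0013 and −0.02 for all genes. *Anxa8* rose from 50.9 ± 4.45 ppm (SD, n = 2) at E to 156 ± 10.2 at M (1.62, limma adjusted p = 0.000172) and *Anxa6* from 217 ± 30.1 to 644 ± 41.4 (1.57, adjusted p = 0.000213), while *Anxa9* fell from 12.8 ± 0.967 to 5.22 ± 0.0413 (−1.27, adjusted p = 0.00105). *Anxa3* was called in E vs. RE (−1.13, limma adjusted p = 0.00158). *Anxa2*, the partner of *S100a10*, had 836 and 703 ppm in the E libraries, 1094 and 1095 in the M libraries and 862 and 879 in the RE libraries, highest in M without being called (0.51, limma adjusted p = 0.0282).

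Cell surface receptors of secreted S100 proteins were represented by 9 genes, 8 of them tested. *Ager*, the receptor RAGE, averaged 1.78 ppm at E, 1.85 at M and 2.64 at RE and was not called in any comparison. In E vs. M 3 were called, all higher, where 8.58% of all genes were called higher. *Alcam* rose from 5.09 ± 0.979 to 57.8 ± 0.115 ppm and was at 18.8 ± 2.35 at RE, *Mcam* rose from 44.0 ± 2.61 to 314 ± 21.6 and was at 75.5 ± 5.84, and *Cd14* rose from 9.91 ± 3.56 to 25.2 ± 0.723 and stayed at 26.6 ± 1.99. In M vs. RE *Alcam* (−1.62, limma adjusted p = 0.000606) and *Mcam* (−2.05, adjusted p = 4.61e-05) fell and *Tlr4*, a receptor of S100A8, rose. Of all genes tested 4.79% were called lower and 8.08% higher in that comparison. Like *S100a4*, *Tlr4* was highest in both RE libraries, with 35.9 and 32.0 ppm in the E libraries, 36.1 and 36.6 in the M libraries and 86.0 and 74.5 in the RE libraries (1.24 against E, limma adjusted p = 0.00123, and 1.14 against M, adjusted p = 0.000922). In E vs. RE *Alcam*, *Cd14* and *Tlr4* were called, all higher, where 6.2% of all genes were called higher.

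Of 22 genes for partners inside the cell 19 were tested. In E vs. M 4 were called higher and 1 lower, in M vs. RE 3 higher and 1 lower, and in E vs. RE 2 higher. Of all genes tested 17%, 12.9% and 9.37% were called in these comparisons, in either direction. *Fgf1*, which leaves cells in a complex with S100A13, had 0.698 and 0.633 ppm in the E libraries, 1.49 and 2.03 in the M libraries and 10.7 and 7.82 in the RE libraries (3.60 in E vs. RE, limma adjusted p = 0.000336). *Iqgap1*, a scaffold of the cytoskeleton that binds S100 proteins, had 266 and 526 ppm in the E libraries and 1549.8 and 1563 in the M libraries (2.06, limma adjusted p = 0.0013) and was at 605 ± 33.1 in the RE cells. *Trpv6*, a calcium channel tied to the S100a10 and annexin A2 complex, had 0.730 and 0.844 ppm in the E libraries, 1.52 and 1.62 in the RE libraries and 0.0537 and 0.0815 in the M libraries, close to the floor of 3 reads' worth (0.0635 to 0.0781 ppm). *Kcnk3*, a potassium channel also tied to S100A10, was at 0.872 and 0.409 ppm in the M libraries and at or under that floor in the other 4. Chosen after their values were seen, *Ppfibp1*, a partner of S100A4, was called in E vs. M (206 ± 77.1 against 561 ± 21.0 ppm, limma adjusted p = 0.00243) and *Dlc1*, a partner of S100A10, in M vs. RE (1.41, adjusted p = 0.00286) and E vs. RE (1.94, adjusted p = 0.00125). *Myh9*, the non-muscle myosin heavy chain bound by S100A4, was not called (0.86 in E vs. M, limma adjusted p = 0.0517). Its 2 E libraries were at 1184 and 2347 ppm, those of *Ppfibp1* at 151 and 260 and those of *Dlc1* at 69.1 and 114. The part of the E replicate difference in the results of these genes and of *Iqgap1* was not tested.

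Among the factors known to act on *S100a8* and *S100a9*, 4 of 7 were tested. *Cebpb* had 111 and 66.8 ppm in the E libraries, 26.5 and 31.3 in the M libraries and 69.2 and 94.9 in the RE libraries and was called lower in E vs. M (−1.58, limma adjusted p = 0.00274) and higher in M vs. RE (1.49, adjusted p = 0.00449). *Stat3* was called higher in E vs. RE (1.16, limma adjusted p = 0.00423). Of all genes tested 8.39% were called lower in M than in E. In RE, 8.08% were called higher than in M and 6.2% higher than in E. Of 43 genes of the epidermal differentiation complex, the region around the S100 genes, 14 had a row and 4 were tested. *Lce1f*, *Lce1g* and *Lce1h*, late envelope genes of keratinocytes, were called higher in M than in E and lower in RE than in M. Of all genes tested 8.58% were called higher in M than in E and 4.79% lower in RE than in M. *Lce1g* had 1.30 and 0.744 ppm in the E libraries, 10.2 and 12.1 in the M libraries and 0.168 and 0.338 in the RE libraries, and *Lce1f* was at 7.03 and 9.84 ppm in the M libraries and at most 0.139 in the other 4.

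The genes most like the 3 S100 genes with the widest spread between stages were found by Pearson correlation of log2 values over the 6 libraries, among 10087 genes whose log2 values averaged 2 or more. For *S100a14* they were *Macrod1* (r = 0.9996), *Prss8* (0.998) and *Tmprss2* (0.998), and 314 genes had r above 0.95. For *S100a4* they were *Ppm2c* (0.998), *Magee1* (0.997) and *Ppt1* (0.995), with 137 genes above 0.95, and for *S100a3* *AC133896.7* (0.982), *2900010M23Rik* (0.98) and *Impa2* (0.98), with 38. These are descriptions over 6 libraries of 3 stages, in which any gene with the same order of stages correlates.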

How the data were processed

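RNA-seq libraries from EpH4 cells at 3 stages, 2 biological replicates each, were mapped by the authors to mouse NCBI-m37 with Bowtie and TopHat2. The deposited table holds signal, that is coverage summed per gene in sequenced bases (50-base reads). The summing tool is not given in the sources used here. The authors used edgeR for their own comparisons, and it was not run here because coverage is not a read count. From the deposited coverage, library totals were scaled by unweighted TMM (trims of 30% on log ratios and 5% on mean level) to ppm, and log2(ppm + 0.1) was tested with limma 3.58.1 in R 4.3.3 (group means of all 6 libraries, trended variance) over 13893 genes with at least 500 bases in 2 or more libraries. Called genes had an absolute log2 fold change above 1 and a Benjamini-Hochberg adjusted p below 0.01. The code was tested on simulated data. Depth was 35782513 to 47928557 reads' worth per library, and the floor of 3 reads' worth (150 bases) covers counting error only.

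Transcript length and GC content came from GENCODE vM21 (GRCm38) by symbol and were found for 93.4% of tested genes. The trend was removed per library. Promoter sequences came from RefSeq.

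All S100 genes with a row were named, and of each companion list at most the 4 called genes with the largest change. *Anxa2*, *Ager* and *Myh9* were named for their known roles and *Ppfibp1* and *Dlc1* after their values were seen. The members and lists were chosen with earlier results of these data known. In all, 19 alternatives were run, 6 of them without 1 library.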

Additional observations from a re-analysis of the deposited data

How the results depend on the processing

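The counts of S100 genes called were 1 (M against E), 2 (RE against M) and 1 (RE against E). Removal of the length and GC trend gave 3 in E vs. M and 3 in E vs. RE, with and without the replicate block. Without 1 library at a time, where the lone library of a stage is assumed to vary like the others, the counts ran from 1 to 1 for M against E, 1 to 2 for RE against M and 0 to 2 for RE against E. *S100a4* lost its calls without either RE library in both comparisons and without either M library in M vs. RE. The number of all genes called moved in these fits as well, and was lower in each fit where *S100a4* lost its call. The replicate block alone gave 1, 2 and 1 calls and changed none. Same-numbered libraries had deviations correlated at 0.267 (E and M), 0.058 (E and RE) and 0.116 (M and RE), and nothing in the labels pairs them. With library totals in place of TMM all genes had a median of −0.29 in E vs. M and 0.18 in M vs. RE, against 0.0013 and −0.02.

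Directions turned only for fold changes that were not called. With library totals these were −0.19 (*S100a1*) and −0.30 (*S100a6*) in E vs. M, 0.14 (*S100a3*) and 0.0803 (*S100a6*) in M vs. RE and −0.0317 (*S100a11*) in E vs. RE. Median-of-ratios factors gave −0.007 for *S100a6* in E vs. M. Trend removal, with and without the block, gave 0.20 (*S100a8*) and 0.33 (*S100a10*) in E vs. M, −0.0381 (*S100a10*) and −0.0336 (*S100a13*) in M vs. RE and 0.27 (*S100a6*) and 0.30 (*S100a10*) in E vs. RE. Without 1 library, E vs. M ran from −0.0477 to 0.24 (*S100a1*), −0.13 to 0.76 (*S100a4*), −0.27 to 0.25 (*S100a6*), −0.66 to 0.18 (*S100a8*) and −0.44 to 0.17 (*S100a10*). M vs. RE ran from −0.36 to 0.28 (*S100a3*), −0.0789 to 0.76 (*S100a8*), −0.0508 to 0.16 (*S100a10*) and −0.0124 to 0.0909 (*S100a13*). E vs. RE ran from −0.37 to 0.13 (*S100a6*), −0.17 to 0.37 (*S100a8*), −0.36 to 0.22 (*S100a10*) and −0.17 to 0.30 (*S100a11*). The cause was not tested. Of 513 fold changes over the alternatives 463 kept their direction and call. This count is no measure of stability, because many of these values could not move. The alternative thresholds used the fold changes of the main fit. Other filters, the replicate block and array weights left the fold changes the same. The calls of *S100a1*, *S100a11* and *S100a13* depended on trend removal or, for *S100a13*, on the first E library.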
